A study of Mus musculus with 4 samples.

Results

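The SOX family are transcription factors that bind DNA through an HMG box, and 10 of its genes, Sox2, Sox4, Sox5, Sox6, Sox8, Sox9, Sox10, Sox11, Sox12 and Sox13, were followed here in mouse cancer-associated fibroblasts (CAFs), the fibroblasts of the tumour stroma. Members were the rows of the deposited count table with these symbols, 10 of 23377 gene rows. Polyadenylated RNA had been sequenced in 4 libraries. The group called resistant holds 2 libraries of CAFs labelled as associated with resistant tumours (titles RES4), and the group called normal holds 2 libraries of CAFs labelled as associated with normal tumours (titles WTA). All 4 libraries share the source, given as CAF. The labels name no strain, age, sort, drug, dose or time, and within a group the titles differ in the replicate number alone. The labels do not say whether replicates were separate tumours or cultures. If a group is 1 tumour, its own traits cannot be told apart from the group, and the spread behind each p-value is then technical.

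SOX proteins bend DNA in the minor groove and usually act with a partner factor. They fall into groups by the likeness of the HMG box. SOX2 is in group B1 and holds stem and progenitor cells undifferentiated. SOX4, SOX11 and SOX12 form group C and activate genes in neural and mesenchymal progenitors. SOX5, SOX6 and SOX13 form group D, lack an activation or repression domain of their own, and modulate other SOX proteins. SOX8, SOX9 and SOX10 form group E: SOX10 specifies neural crest, Schwann cells and melanocytes, and SOX9 drives cartilage formation and is also made by fibroblasts and many progenitors. In a bulk library fewer cells of a type and less RNA per cell cannot be told apart, and this holds for every value below.

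The windows around the transcript starts of 4 members are printed, chosen among the members with a window for their different changes: Sox2 and Sox11 had no read in resistant tumour CAFs, Sox12 rose there, and Sox5 fell. Each window runs from 250 bases before to 50 bases after the RefSeq start, 5′ to 3′ on the gene's strand, in the GRCm38.p6 build, which is not the build of the counts. The transcribed ends of the Sox2 and Sox11 windows were not found in a GENCODE M21 transcript of these genes, while those of Sox12 and Sox5 were. Capitals mark the SOX core motifs ACAAT and ACAAAG, searched on both strands. The motifs do not contain each other.

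Sox2, chr3:34649745-34650044, plus strand: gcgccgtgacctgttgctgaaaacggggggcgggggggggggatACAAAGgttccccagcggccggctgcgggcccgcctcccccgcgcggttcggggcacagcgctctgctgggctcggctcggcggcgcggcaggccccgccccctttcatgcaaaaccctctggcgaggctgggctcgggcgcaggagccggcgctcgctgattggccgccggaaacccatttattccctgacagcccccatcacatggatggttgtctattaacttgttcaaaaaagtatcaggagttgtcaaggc
Sox11, chr12:27342669-27342968, minus strand: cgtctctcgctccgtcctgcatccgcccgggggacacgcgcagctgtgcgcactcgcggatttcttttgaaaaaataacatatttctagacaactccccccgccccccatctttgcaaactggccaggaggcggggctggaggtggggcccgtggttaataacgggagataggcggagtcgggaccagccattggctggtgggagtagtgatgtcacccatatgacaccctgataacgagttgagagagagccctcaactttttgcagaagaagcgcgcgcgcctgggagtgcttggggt
Sox12, chr2:152397997-152398296, minus strand: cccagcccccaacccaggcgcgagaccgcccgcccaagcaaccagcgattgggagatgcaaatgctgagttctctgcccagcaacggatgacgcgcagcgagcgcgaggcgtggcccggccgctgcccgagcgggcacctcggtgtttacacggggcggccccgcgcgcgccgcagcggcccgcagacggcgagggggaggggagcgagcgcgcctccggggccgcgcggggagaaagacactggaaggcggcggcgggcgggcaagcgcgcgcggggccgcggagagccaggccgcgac
Sox5, chr6:143947057-143947356, minus strand: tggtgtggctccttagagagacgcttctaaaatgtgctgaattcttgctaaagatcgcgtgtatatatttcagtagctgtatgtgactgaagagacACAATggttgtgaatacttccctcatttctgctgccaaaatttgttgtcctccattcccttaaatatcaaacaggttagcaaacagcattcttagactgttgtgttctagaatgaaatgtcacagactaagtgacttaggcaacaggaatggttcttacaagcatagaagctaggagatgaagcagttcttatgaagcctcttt

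The Sox2 window held 1 ACAAAG, the Sox5 window held 1 ACAAT, and the Sox11 and Sox12 windows held neither. Of 32851 windows of this length, 31.0% held ACAAT and 18.7% held ACAAAG. The Sox12 window had 47 CpG dinucleotides and 76.7% G and C, the Sox2 window 27 and 66.3%, the Sox11 window 21 and 58.7%, and the Sox5 window 3 and 39.7%. The median over all windows was 7 CpG and 52.7% G and C. In all, 8 of the 10 members had windows. Sox13 had 40 CpG, Sox8 21 and Sox4 12, and the 6 alternative starts of Sox6 had 2 to 13. Sox12, which rose, and Sox13, which fell, thus had the most CpG of the 8. Windows of Sox9 and Sox10 were not used here.

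Library totals ran from 2785936 to 5558541 reads, with the smaller totals in the resistant group. A count of 0 allows up to 3 reads, which is 0.503 to 1.14 CPM (the usual depth-scaled read count of RNA-seq) by library, for counting error only. Of 14 fibroblast markers, 13 were tested, 11 rose in resistant tumour CAFs and none fell, with a median log2 fold change of 1.86. Over all genes tested 15.5% rose. With abundance offsets, which remove each library's trend along the mean level, 8 rose and 1 fell. Dcn and Fap exceeded the count cutoff of the filter in the resistant libraries only. The fold changes were 7.96 ± 0.62 (SE) for Dcn (decorin), 5.78 ± 0.52 for Pdgfra, 3.89 ± 0.50 for Pdpn and 2.02 ± 0.21 for Col3a1, all on the log2 scale. Summed over the list the level was 9598 and 9280 CPM in resistant replicates 1 and 2 and 4676 and 3877 CPM in the normal libraries. Col1a1, Col1a2, Vim and Postn were abundant in all 4 libraries, whereas Dcn had 3 and 1 reads in the normal libraries. Lum (lumican), below the filter, had no normal read and only 4 and 12 resistant reads. The label CAF was thus matched by collagen and vimentin in both groups, but not by Dcn in the normal group. Lum was low in both groups.

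All 10 members passed the filter on low counts and all 10 were called different between the groups, at a Benjamini-Hochberg adjusted p under 0.05 in edgeR's quasi-likelihood test over all 12001 genes tested. Sox9 and Sox12 were higher in resistant tumour CAFs, and Sox2, Sox4, Sox5, Sox6, Sox8, Sox10, Sox11 and Sox13 were lower. Across all genes tested 29.4% were called, 13.9% lower and 15.5% higher. For 6 members, Sox2, Sox5, Sox6, Sox10, Sox11 and Sox13, only the normal libraries exceeded the count cutoff of 2.94 CPM. Such a gene had to differ to be tested, and of 509 genes like this 84.3% were called lower, so the number of these 6 that were called says nothing about SOX genes. Sox4, Sox8, Sox9 and Sox12 exceeded the cutoff in a resistant library too, where 10.8% of 11492 genes were called lower. The group ranges of all 10 members were apart, as were those of 64.7% of all genes tested. In the authors' deposited table, 6 members had an adjusted p under 0.05 and a negative log2 fold change and 1, Sox9, a positive one. Sox4, Sox8 and Sox12 had an adjusted p of 1 in that table, whose test settings the sources used here do not give. With DESeq2 as run here their adjusted p was 0.00612, 0.0648 and 0.0192. The authors' counts and those above thus cannot be compared directly.

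**Figure D1:**
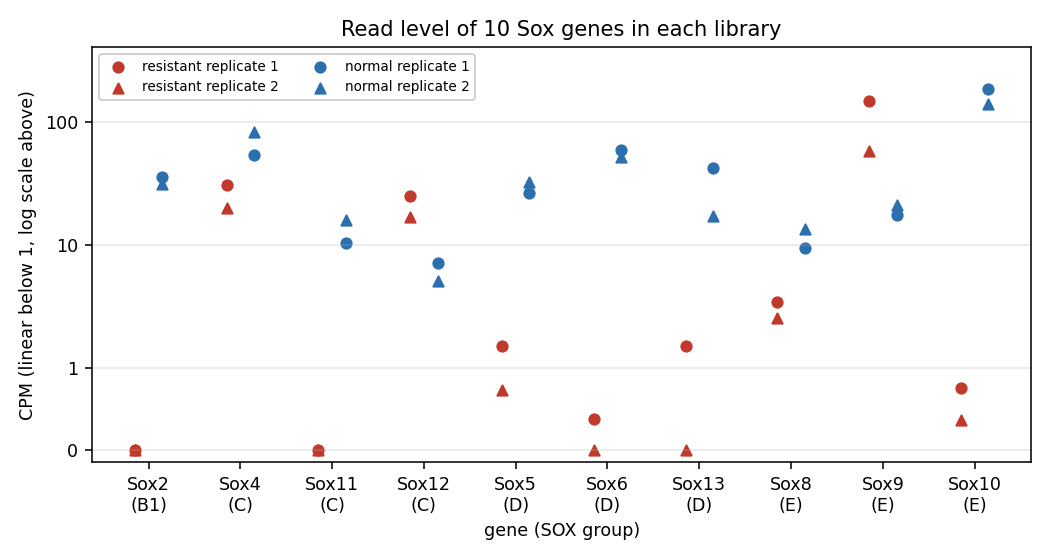
Level of each member in CPM (y axis, linear below 1 and logarithmic above) in each of the 4 libraries, red for resistant and blue for normal, with circles for replicate 1 and triangles for replicate 2. Red lies above blue for Sox9 and Sox12 alone, and both red symbols lie at 0 for Sox2 and Sox11.

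Group E held the most abundant member of either group of libraries, but not the same one. Sox10 had 2 and 1 reads in resistant replicates 1 and 2, or 0.759 and 0.366 CPM, and 745 and 821 reads in normal replicates 1 and 2, or 184 and 138 CPM. Both normal libraries were far above both resistant ones, which lay below the level that a count of 0 allows. The ratio of pooled reads, normal over resistant, was 280 (95% counting interval 95.6 to 1359), with adjusted p = 2.94e-06. Sox10 was called lower in all 15 alternatives, but it exceeded the count cutoff in the normal libraries only, where most genes were called lower.

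Sox9 ran the other way. It had 384 and 159 reads in the resistant libraries, or 146 and 58.2 CPM, and 70 and 126 in the normal ones, or 17.3 and 21.1 CPM. The groups did not overlap, but the resistant replicates differed from each other more than the normal ones did, with a mean of 102 ± 61.9 CPM (SD, n = 2) against 19.2 ± 2.72 CPM. The log2 fold change was 2.40 ± 0.46 (SE; adjusted p = 0.00173). Without resistant replicate 1, the higher of that group, it was 1.60 (adjusted p = 0.0114).

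Sox8, which often acts beside SOX9 and SOX10, was the least abundant member of group E in the normal libraries. It had 9 and 7 reads in the resistant libraries (3.41 and 2.56 CPM) and 38 and 80 in the normal libraries (9.38 and 13.4 CPM). The log2 fold change was -1.93 ± 0.54 (adjusted p = 0.0169). The call was lost without resistant replicate 2 (log2 fold change -1.74), without normal replicate 2 (-1.68) and with DESeq2 (adjusted p = 0.0648). It was also lost in edgeR's glmTreat test against a log2 fold change of 1 (adjusted p = 0.0987).

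Sox2, the only member of group B1 followed here, was without a read in both resistant libraries. The normal libraries held 143 and 184 reads, or 35.3 and 30.9 CPM. Sox2 was thus at least 58.5-fold lower in the resistant group, a bound that rests on 3 counts over the group (adjusted p = 3.56e-05). The normal replicates lay close together, at 33.1 ± 3.14 CPM. Sox2ot, a noncoding RNA gene that overlaps Sox2, had 4 and 1 resistant and 8 and 17 normal reads and was below the filter. Reads of overlapping genes can be split by the counting, whose settings the sources used here do not give.

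Group C moved in both directions. Sox4 had 80 and 54 reads in the resistant libraries (30.3 and 19.8 CPM) and 217 and 492 in the normal libraries (53.6 and 82.5 CPM). Its log2 fold change was -1.44 ± 0.41 (adjusted p = 0.0189), the smallest of the 10 members in size. The call was lost when resistant replicate 2 was left out (-1.17) and when normal replicate 2 was (-1.14). It was also lost in edgeR's glmTreat test against a log2 fold change of 1 (adjusted p = 0.237).

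Sox11 was also without a resistant read, against 42 and 94 reads in the normal replicates, or 10.4 and 15.8 CPM. Its level was at least 24.3-fold lower, again against 3 counts over the group (adjusted p = 2.38e-04). Normal replicate 2 held 94 of its 136 reads. Sox12 had 66 and 46 reads in the resistant libraries (25.03 and 16.8 CPM) and 29 and 30 in the normal libraries (7.16 and 5.03 CPM). Its log2 fold change was 1.79 ± 0.47 (adjusted p = 0.0128), opposite in sign to that of Sox4. The Sox12 call was lost without resistant replicate 1 (adjusted p = 0.0579), without normal replicate 1 (adjusted p = 0.0523) and without normal replicate 2 (adjusted p = 0.185).

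All 3 members of group D fell, but all 3 exceeded the count cutoff in the normal libraries only. Of 509 genes like this 84.3% were called lower, so this count says nothing particular about group D. Sox6 had 1 and 0 reads in the resistant libraries and 240 and 308 reads in the normal libraries, or 59.3 and 51.7 CPM. The ratio of pooled reads, normal over resistant, was 294 (95% counting interval 52.5 to 11633; adjusted p = 1.56e-05). The interval is wide because it rests on a single resistant read. Without resistant replicate 1 no Sox6 read remained in that group, and without resistant replicate 2 the fitted log2 fold change was -7.08 against -7.99 with all libraries.

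Sox5, which pairs with SOX6 in cartilage and in neural progenitors, had 4 and 2 reads in the resistant libraries (1.52 and 0.732 CPM) and 106 and 193 in the normal libraries (26.2 and 32.4 CPM). Its log2 fold change was -4.67 ± 0.59 (adjusted p = 1.01e-04). Without resistant replicate 1 it was -5.26. Sox13 had 4 and 0 reads in the resistant libraries (1.52 and 0 CPM) and 171 and 102 in the normal libraries (42.2 and 17.1 CPM). The fitted change was -5.24 ± 0.85 on the log2 scale (adjusted p = 5.27e-04). Its replicates differed in both groups, and the call held with each library left out, at -4.53 without normal replicate 1 and -4.25 without resistant replicate 2. Without resistant replicate 1 the group had no Sox13 read, and the fitted value is then no measure of size.

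**Figure D2:**
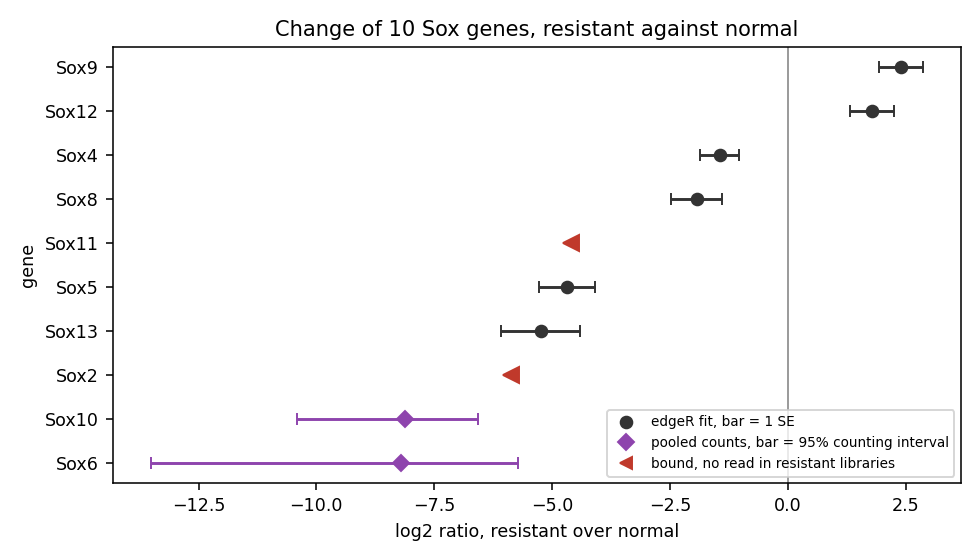
Log2 ratio of resistant over normal (x axis) for each member (y axis). Circles are edgeR fits with bars of 1 SE, diamonds are ratios of pooled reads with 95% counting intervals, and triangles are bounds for the genes with no resistant read. Sox9 (2.40) and Sox12 (1.79) lie right of 0 and the other 8 genes lie left of it.

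Levels of different genes were compared per kilobase of exonic sequence (CPM per kb), since longer transcripts give more reads. The length was that of all annotated exons of a gene together, 14376 bases for Sox5 and 14832 for Sox6 against 4135 for Sox9. Where the transcripts made hold fewer exons, the orders and shares below place a gene too low. In the normal libraries Sox10 came first, at 52.7 ± 10.7 CPM per kb (SD, n = 2). Sox2 (16.1 ± 1.53) and Sox4 (14.2 ± 4.27) followed, with ranges that overlapped each other but not that of Sox10. Sox13 (6.88 ± 4.12) and Sox9 (4.65 ± 0.659) overlapped next, then Sox6 (3.74 ± 0.362) and Sox8 (3.66 ± 0.916). Sox5 (2.04 ± 0.305), Sox11 (1.57 ± 0.459) and Sox12 (1.37 ± 0.338) came last, each overlapping its neighbour.

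In the resistant libraries Sox9 came first, at 24.6 ± 14.96 CPM per kb, above Sox4 (5.22 ± 1.56) and Sox12 (4.70 ± 1.30), whose ranges overlapped. Sox8 stood apart at 0.958 ± 0.193 in this order of the 10 members, which leaves out Sox7 (described below). The other 6 members were at most 0.352 CPM per kb in either library. Sox12, whose mean was the lowest of the 10 in the normal libraries though its range overlapped that of Sox11, had only Sox9 and Sox4 above it in the resistant ones.

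Within a library the ratio of Sox10 to Sox9 needs no scaling between libraries. Per kilobase, Sox10 was 14.4 and 8.83 times Sox9 in normal replicates 1 and 2. In resistant replicate 1 Sox9 was 142 times Sox10 (95% counting interval 38.95 to 1174), on 2 Sox10 reads. In resistant replicate 2 it was 117 times Sox10 (95% counting interval 20.8 to 4663), on 1 Sox10 read. The order of the 2 genes was thus opposite in the groups, in 4 of 4 libraries. Of the level per kilobase summed over the members, Sox10 made up 52.8% and 45.4% in the normal libraries and Sox9 made up 71.9% and 61.3% in the resistant ones. Group E as a whole made up 59.0% and 54.8% in the normal and 74.6% and 65.4% in the resistant libraries. Group D made up 13.7% and 9.75% in the normal and 0.986% and 0.222% in the resistant libraries, and Sox2 15.02% and 15.1% in the normal libraries alone. These shares are a description, with no test.

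**Figure D3:**
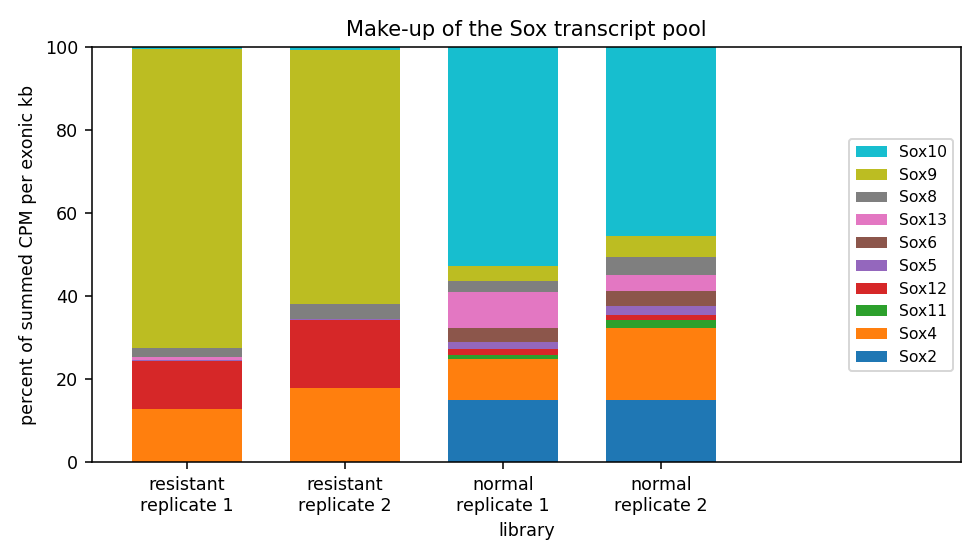
Share of each member (y axis, percent of the CPM per exonic kilobase summed over the 10 members) in each library (x axis). Sox10 takes 52.8% and 45.4% of the normal bars, and Sox9 takes 71.9% and 61.3% of the resistant bars.

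Of the other 10 genes of the family, Sry included, all but Sox7 were near or at 0 in every library. Sox7, a group F factor of endothelium and endoderm, had 17 and 9 reads in the resistant and 2 and 1 reads in the normal libraries. In the resistant libraries Sox7 stood at 1.95 and 0.998 CPM per kb, where Sox8 stood at 1.09 and 0.821. No other of these 10 was tested, and the ratio of pooled reads, resistant over normal, was 16.2 (95% counting interval 4.95 to 83.4; adjusted p = 0.00302). Only the resistant libraries exceeded the count cutoff for Sox7, and 90.5% of 577 genes like this were called higher. The call was lost without normal replicate 2 (adjusted p = 0.0827), and without resistant replicate 1 the gene was not tested. Sox1, Sox3, Sox14, Sox17 and Sry had no read in any library. Sox15, Sox18, Sox21 and Sox30 had at most 4 reads in a group.

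Genes linked to the SOX factors were read from lists, beside a median log2 fold change of -0.0036 over all genes tested. Of all genes tested 13.9% were called lower and 15.5% higher, and each count below stands beside these shares. Of 27 genes of Schwann cells and neural crest known to mark these cells or to respond to SOX10, 16 were tested. In resistant tumour CAFs 8 of them fell and 1 rose, and the median was -2.13. Of the 16, 5, Erbb3 and Cdh19 among them, exceeded the count cutoff in the normal libraries only, where 84.3% of genes were called lower. Erbb3, a neuregulin receptor that SOX10 activates, stood at 0 and 1.10 CPM in the resistant and 249 and 186 CPM in the normal libraries, with 379 normal reads per resistant read after scaling (95% interval of counting 130 to 1840). Ngfr, the p75 neurotrophin receptor, had a log2 fold change of -7.14 ± 0.34. Cdh19, a cadherin of Schwann cell precursors, had 1 resistant read, and its normal level was 467 times the resistant one (95% interval 83.6 to 18477). The gene that rose was Cnp (3.31 ± 0.44), which encodes a phosphodiesterase of myelinating glia and was named after its value was seen.

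These lists also mark cells that CAF preparations can hold. The summed level of the Schwann cell and neural crest list was 365 and 301 CPM in the resistant and 1578 and 1507 CPM in the normal libraries. Mbp, which encodes myelin basic protein, had 5 to 6 reads in each library. S100b had 4 and 4 reads in the resistant and 4 and 1 in the normal libraries. Genes of the list below the filter went both ways. Ednrb had 2 and 5 resistant and 1 and 0 normal reads, and Pou3f1 had no resistant read and 10 and 12 normal reads. The part of such cells in the SOX values was not tested.

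Of 13 oligodendrocyte lineage genes 3 were tested and 2 fell. Olig1, which had no resistant read, was at least 46.3-fold lower, but exceeded the count cutoff in the normal libraries only, where most such genes were called lower. Cspg4, the NG2 proteoglycan, had a log2 fold change of -3.86 ± 0.37. Olig2, Nkx2-2, Mog, Enpp6 and Opalin had at most 1 read in all. Of 10 melanocyte genes 2 were tested and neither passed: Mitf (0.15 ± 0.43) and Tyr (-0.45 ± 0.47). Tyrp1, Dct and Mlana had no read in any library. Mitf is in the neural crest list too. In the normal libraries Mitf stood at 18.03 and 23.8 CPM and Tyr at 11.6 and 10.4 CPM. Kit, a receptor of melanoblasts, had no resistant read and 6 and 18 normal reads and was below the filter.

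Cartilage genes were mostly too low to test. Of 18 targets of SOX9 with SOX5 and SOX6, 2 were tested and both were called lower. Fgfr3 fell by 3.37 ± 0.49 on the log2 scale, and Col27a1 was 68.8 times as high in the normal libraries (95% interval 23.4 to 335). Col27a1 exceeded the count cutoff in the normal libraries only, so its call carries little weight. The main cartilage matrix genes Acan, Col9a1, Matn1 and Hapln1 had no read in any library, and Col2a1 had 2 reads, both in resistant replicate 2. Summed over the list the level was 10.6 and 6.95 CPM in the resistant and 88.2 and 70.6 CPM in the normal libraries. Most of the normal sums came from the 2 tested genes. Col27a1 made up 54.3 and 27.7 CPM and Fgfr3 30.9 and 35.2 CPM, so the sums do not show a fall of the other genes. Of 12 pluripotency genes that work with SOX2, Nanog (-0.30 ± 0.58) and Klf4 (0.48 ± 0.58) were tested and neither passed. Pou5f1, the best known partner of SOX2, had no read in any library, also where Sox2 stood at 35.3 and 30.9 CPM.

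Of 11 neuronal and mesenchymal genes linked to group C, 5 were tested and 4 fell. Nes (nestin, a filament protein of progenitors) had a log2 fold change of -3.63 ± 0.29, Map2 -5.60 ± 0.49, Tead2 -1.95 ± 0.52 and Tubb3 -1.28 ± 0.40. Map2 exceeded the count cutoff in the normal libraries only. Stmn2, a neuronal tubulin-binding protein gene below the filter, had 7 reads in each resistant and 1 in each normal library, a ratio of 13.05 (95% counting interval 2.997 to 118) in the other direction. Dcx, Prox1, Neurod1 and Elavl4 had at most 2 reads in all. Of 20 other genes with an HMG box 17 were tested, 2 rose and 4 fell, with a median of 0.03. That is near the share of 29.4% called over all genes tested, so the count says nothing particular about these genes. Lef1, a partner of beta-catenin, had -2.40 ± 0.36, Hmgb3 had -1.55 ± 0.34 and Hbp1, a repressor, had 1.53 ± 0.29. Tcf7, over the count cutoff in the normal libraries only, had 3 resistant reads and was 14.8 times as high in the normal libraries (95% interval 4.91 to 73.4). The number that rose was 0 without normal replicate 1, 1 without normal replicate 2 and 4 without resistant replicate 2, and the number that fell was 2 under a filter of 50 reads in 2 libraries.

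**Figure D4:**
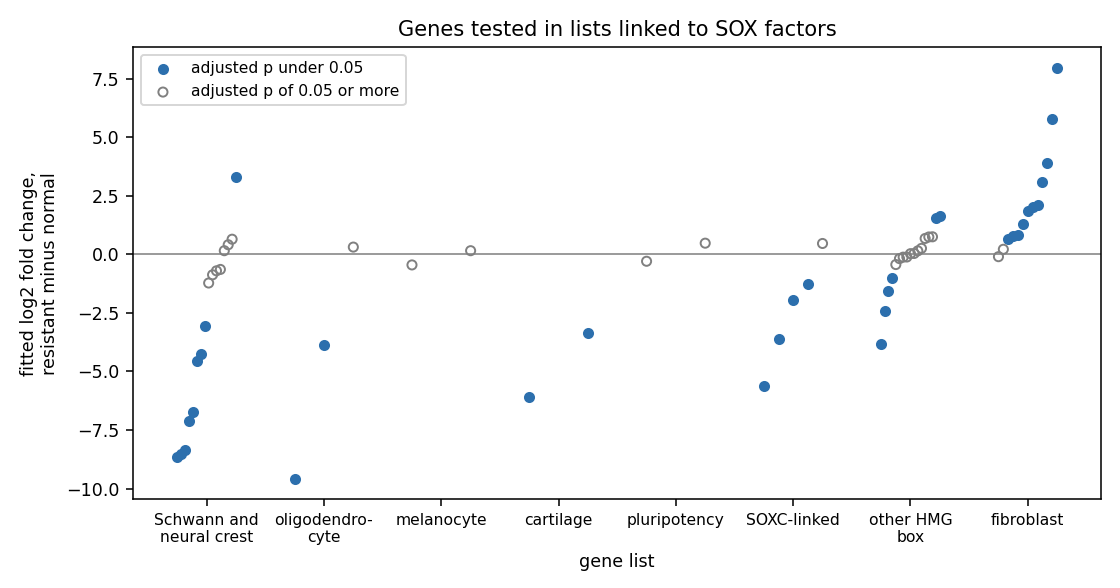
Fitted log2 fold change, resistant minus normal (y axis), of each tested gene in 8 lists (x axis), filled where the adjusted p was under 0.05. The Schwann cell and neural crest list has 8 filled points below 0 and 1 above, and the fibroblast list has 11 filled points above 0 and none below. Fitted values of genes with no read in a group show direction, not size.

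Markers of other cells were low or mixed. Among 10 endothelial markers Eng alone was tested and fell by 4.30 ± 0.49. It exceeded the count cutoff in the normal libraries only, where 84.3% of genes were called lower, while Tie1 and Emcn had no read in any library and Cdh5 had at most 1 read in each. Their sum was 6.07 and 4.02 CPM in the resistant and 61.5 and 51.7 CPM in the normal libraries, of which Eng made up 55.6 and 48.5 CPM. Of 8 tested pericyte and smooth muscle genes Rgs5 (3.21 ± 0.74) and Myh11 (at least 74.6-fold) rose and Mcam fell by 3.58 ± 0.33. Rgs5 and Myh11, like Lyz2 below, exceeded the count cutoff in the resistant libraries only, where 90.5% of genes were called higher, and 1 rather than 2 rose without either normal replicate or with DESeq2. The sums were 623 and 787 CPM in the resistant and 805 and 754 CPM in the normal libraries. Epithelial and immune sums were at most 63.7 and 18.3 CPM in a library. Epcam, Cdh1 and Ptprc had no read. Krt19 rose by 3.09 ± 0.44 and the macrophage gene Lyz2 by 3.07 ± 0.63, and the latter call was lost without normal replicate 1. Krt14, an epithelial gene below the filter, went the other way from Krt19, with no resistant read and 12 and 15 normal reads. The part of these cells in the SOX values was not tested.

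The genes with the pattern nearest to that of Sox10, by the distance of centred log2 CPM over the 4 libraries among the 10356 tested genes averaging 10 CPM or more, were Aatk (0.18), Fam19a5 (0.29), Cdh19 (0.36), Shroom2 (0.39) and Slc35f1 (0.50). Aatk had 1 and Slc35f1 had 0 resistant reads. Nearest to Sox9 were 9430037G07Rik (0.26), Triobp (0.29), Csf1 (0.31), Enpp1 (0.31) and Tlr3 (0.34). Csf1, the macrophage colony-stimulating factor, stood at 964 and 521 CPM in the resistant and 142 and 169 CPM in the normal libraries, so it shared the higher value of resistant replicate 1 with Sox9. With 4 libraries in 2 groups such a distance rests on the group difference and on the differences within 2 pairs of replicates.

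**Figure D5:**
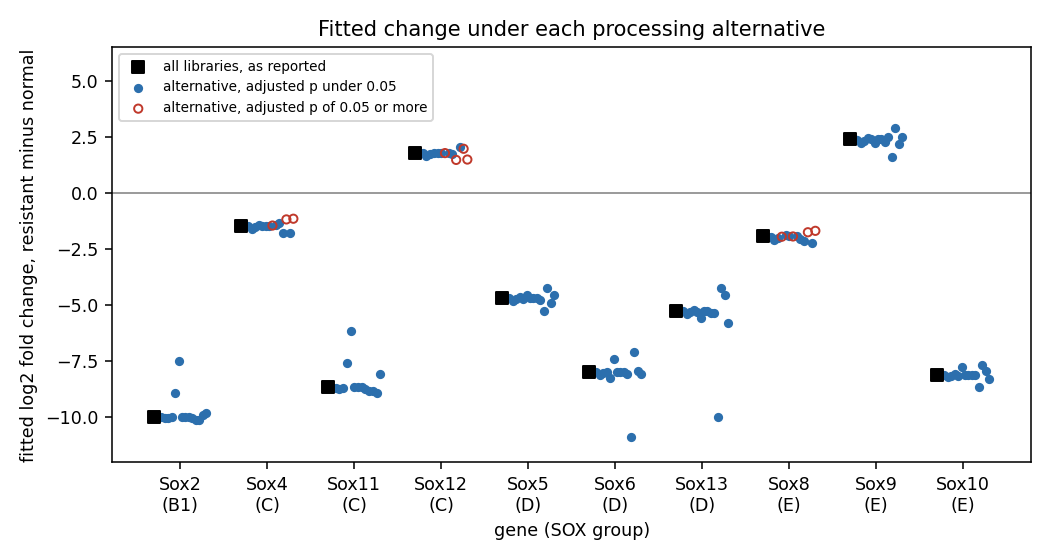
Fitted log2 fold change, resistant minus normal (y axis), of each member (x axis) with all libraries (squares) and under the alternatives in which it was tested (circles, open where the adjusted p was 0.05 or more). Open circles appear for Sox4, Sox8 and Sox12 alone, and every value stays on the side of 0 of its square. Values far below their square for Sox6 and Sox13 come from the fit without resistant replicate 1, in which those genes had no resistant read. Sox2 and Sox11 had no resistant read in any fit, so all their values, squares included, show direction and not size.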

How the data were processed

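The data were read counts per gene symbol in 4 libraries, 2 per group, with groups and replicate numbers from the sample titles. For the deposited counts, the submitters' processing notes list bcl2fastq, TopHat2 2.1.1, Picard 1.62, HTSeq 0.7.2, DESeq2 and the mm9 build, with no role given. Annotation, strand and settings: not given in the sources used here. Both a TruSeq and a SMART-seq2 preparation appear in the labels, unassigned to libraries, so whether the preparation differed between the groups was not tested. The authors' deposited log2 fold changes and p-values were only quoted; the authors' normalized table was not used.

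Counts were filtered with filterByExpr (minimum count 10), scaled with TMM factors (trimmed mean of M values) and tested with edgeR 4.0.16 (glmQLFit, glmQLFTest; R 4.3.3), resistant minus normal, with Benjamini-Hochberg adjustment over all genes tested and a threshold of 0.05. CPM uses TMM-scaled library sizes. A fold against no read is a bound on 3 counts over the group, and with 1 to 3 reads a ratio with an exact 95% interval is given; both cover counting error alone, as no molecular identifiers are described. Exonic lengths came from GENCODE M21, matched by symbol, and start windows from RefSeq. The procedure was tested on simulated counts, with planted changes smaller than the largest ones seen here. The outcome is not reported here and does not cover changes of that size.

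The members, the gene lists and the tests were chosen with earlier results of these data known. Text names all Sox rows, up to 4 called genes of smallest adjusted p per list (or the 2 of highest CPM where none was called), 5 nearest patterns for Sox10 and Sox9. Values of some list genes are not reported here. Any other list gene was picked for the text once its values were known. Of 4 list symbols not in the table, 3 were matched by an older symbol. Alternatives were other scaling factors, other filters, DESeq2 1.42.0, limma-voom (limma 3.58.1), the likelihood ratio test, glmTreat against a log2 fold change of 1, the replicate number as a block, abundance offsets (each library's loess trend along mean log2 CPM removed, span 0.5) and each library left out.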

Additional observations from a re-analysis of the deposited data

How the results depend on the processing

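No Sox gene changed direction under any alternative. Sox2, Sox5, Sox6, Sox9, Sox10, Sox11 and Sox13 kept their call in every alternative that tested them. Sox4, Sox8 and Sox12 lost it in 3, 4 and 4 alternatives. Of the genes that kept it, all but Sox9 exceeded the count cutoff in the normal libraries only. There 84.3% of genes were called lower, so keeping the call says little for them. The number of members called higher, 2 with all libraries, was 1 with at least 50 reads in 2 libraries, which left 7 members tested, and 1 with glmTreat against a log2 fold change of 1; it ran from 1 to 2 with each library left out, and the number called lower, 8 with all libraries, from 6 to 8. A fit without 1 library assumes that the lone library varies like the other group. With the replicate number as a block the counts were 8 lower and 2 higher, and 2267 lower and 2257 higher over all genes against 1668 and 1857 without it. The labels do not say that a number marks a shared batch, and the replicate differences of the groups correlated at r = 0.217 across 12001 genes, which are not independent. Over all genes the counts fell to 1066 higher and 839 lower with glmTreat, 1198 and 1090 without normal replicate 1, and 1078 and 951 without normal replicate 2. Library totals in place of TMM moved the median of all genes by -0.14 (log2). Of 390 counts over gene lists, 25 differed from the reported count by more than 1.5 times or from 0. With no low-count filter 1 melanocyte gene fell and 1 gene linked to group C rose. With abundance offsets 8 fibroblast genes rose and 1 fell. With glmTreat 7 fibroblast genes rose, 2 genes linked to group C fell, and 0 HMG-box genes rose and 2 fell; with the replicate block 4 HMG-box genes rose. Under the filter of 50 reads in 2 libraries 0 pericyte and smooth muscle genes rose. Depth limits Sox2, Sox6, Sox10 and Sox11 most, with at most 3 reads over the resistant libraries, so their size of change is a bound or a wide interval.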
